A study of Mus musculus with 8 samples.

Results

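The genes described here copy DNA in S phase. They were chosen by name, from a list of 41 symbols covering origin licensing, the replicative helicase, the polymerases, the sliding clamp, the supply of nucleotides and the assembly of chromatin on new DNA. Of these, 40 had at least 1 probe set assigned to that gene alone, out of 18193 genes measured in all. Chaf1a, the large subunit of chromatin assembly factor 1, was the remaining symbol and has no value here. Where a gene had several probe sets, the brightest over all livers stood for it.

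RNA came from the livers of 8 mice aged 2 days, 1 Affymetrix array each, and values are on the log2 scale. The knockout group held 4 mice of genotype Mfp2 -/- and the other group 4 wild type (WT) mice. Mfp2 is a peroxisomal enzyme of fatty acid and bile acid precursor shortening, encoded by Hsd17b4. Strain, sex, litter and the deleted part of the gene are not given in the labels, nor is any treatment.

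DNA replication starts at origins, where the origin recognition complex with CDC6 and CDT1 loads the MCM helicase during G1. At the entry to S phase CDC45, the GINS complex and MCM10 turn the loaded helicase on, and primase, the polymerases, the clamp PCNA and its loaders then copy both strands. Many of these genes are switched on together late in G1 by E2F transcription factors. In the newborn liver dividing cells include hepatocytes and the blood-forming cells, largely red cell precursors, that the liver still houses.

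All 40 measured replication genes had lower mean values in the Mfp2 knockout livers, and 8 of them fell past the threshold, a limma p-value adjusted by the Benjamini-Hochberg method over all probe sets of under 0.05. These 8 were Orc6, Cdc6, Mcm10, Cdc45, Rfc4, Dscc1, Rrm2 and E2f8. That is 20% of the members, while 0.841% of all genes were called lower. None of the members was called higher, a direction that held 0.308% of all genes. In 26 of the 40 members every knockout value lay below every wild type value, a pattern seen in 5.02% of all genes. The members and the lists compared below were chosen with earlier results of these data known, so such shares describe and do not test. Members also varied together across livers, so the 40 are not separate observations. The median difference of the members, knockout minus wild type, was -0.62 on the log2 scale, or 1.54-fold lower, against 0.01 over all genes. Differences ran from -0.27 in Pole to -1.31 in Dscc1.

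The number called depended on single arrays. Leaving out wild type 2 raised it to 15, and leaving out knockout 1 or knockout 2 lowered it to 6 or 2. In the fits lacking knockout 3 and lacking wild type 1 it was 1, E2f8. No member passed when knockout 4, wild type 3 or wild type 4 was dropped. Calls over all probe sets, in either direction, went from 343 to 13, 13 and 9 in those fits and to 38 without knockout 3, so calls were lost across the whole array. The median of the members stayed between -0.54 and -0.72 in these fits, and all 40 differences stayed below 0. Of the members not called, 11 had an adjusted p under 0.1, starting at 0.0580, and the highest p among those called was 0.0480, which places members on either side of the threshold close together. At an unadjusted limma p under 0.05 there were 39 members, and 1489 of all 18193 genes were lower at that level.

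**Figure D1:**
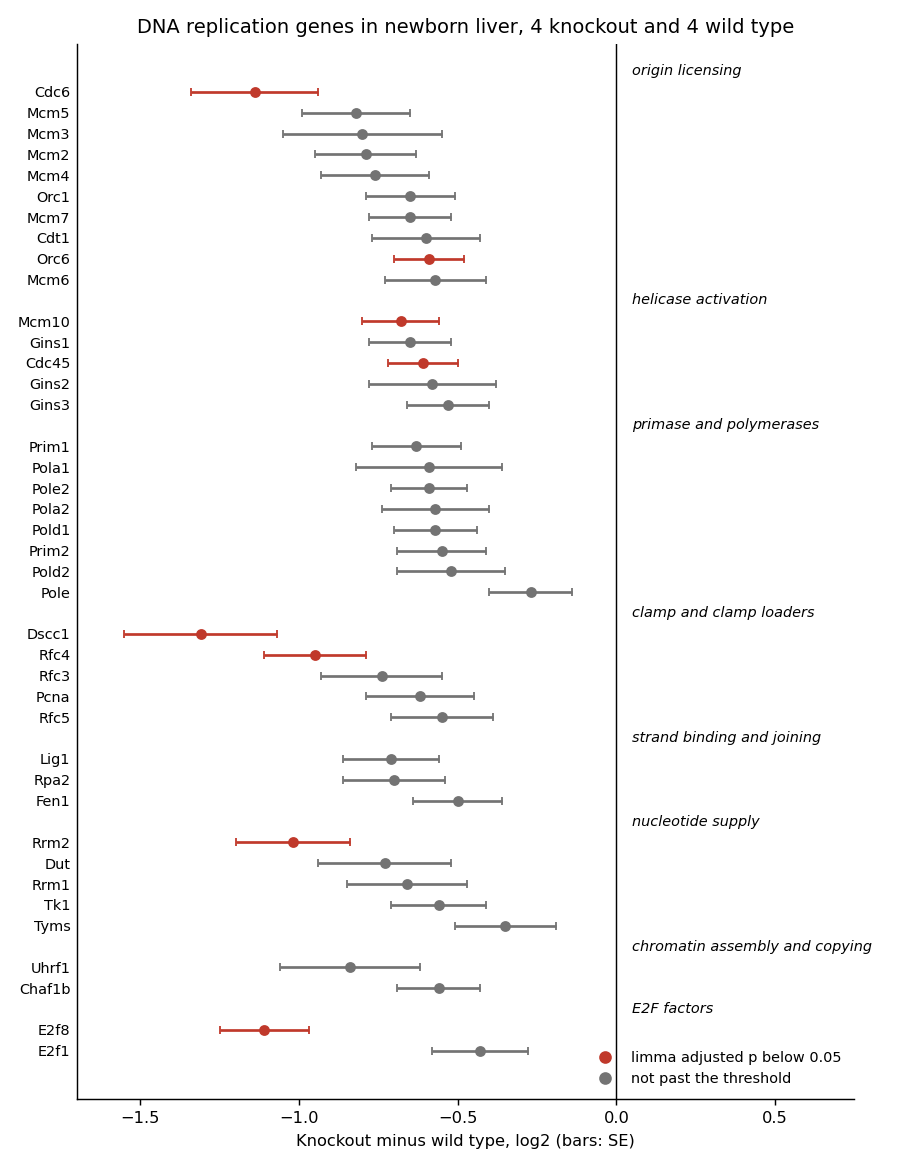
Difference between knockout and wild type livers for each of the 40 replication genes, on the log2 scale, with the standard error of the fit as bars and genes grouped by role. Every point lies left of 0, and the 8 members past the threshold (red) range from -0.59 to -1.31.

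**Figure D2:**
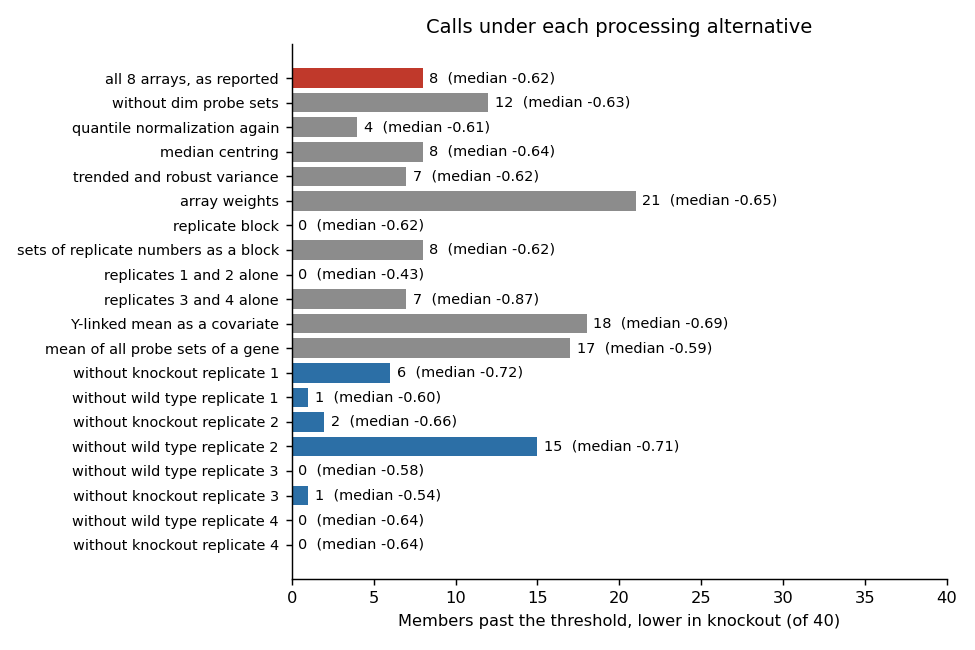
Number of the 40 members past the threshold and lower as reported and under each alternative. The count is 8 as reported and runs from 0, with the replicate number as a block among others, to 21 with array weights. Calls over all probe sets were 343, 15 and 914 in these fits.

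Hsd17b4 itself, the check of the labels, lay between 3.25 and 4.29 in the knockout and between 8.15 and 8.97 in the wild type livers. Of 3 abundant hepatocyte products, albumin (Alb) differed by -0.05, transthyretin (Ttr) by -0.18 and apolipoprotein A-I (Apoa1) by 0.12, with limma adjusted p of 0.571 or more. The Apoa1 groups did not overlap, with the knockout livers higher. Values of these 3 genes lie near the top of the array's range. Array medians ran from 3.68 to 3.73, and correlations between arrays from 0.975 to 0.993. As a measure of RNA quality, actin probes at the 3' end exceeded those at the 5' end by 0.58 to 0.86 in knockout and by 0.52 to 0.67 in wild type arrays. For GAPDH the same measure ran from -0.18 to 0.07 in knockout and from -0.11 to -0.02 in wild type arrays. Knockout 1 was the highest array for both controls. Xist, which coats the silenced X, was high in knockout 1, knockout 2 and wild type 3 and low in the other livers. With the mean of 3 Y-linked genes as a covariate 18 members were called lower, and the median was -0.69. Calls over all probe sets rose from 343 to 527 in that fit. With genotype in the fit, 229 probe sets separated the arrays numbered 1 and 2 from those numbered 3 and 4. The median of the members was -0.43 within replicates 1 and 2, with 0 called, and -0.87 within replicates 3 and 4, with 7 called. Over all probe sets, in either direction, 4 were called within replicates 1 and 2 and 461 within replicates 3 and 4. Within replicates 1 and 2 both knockouts were Xist-high and both wild types Xist-low, and genotype and sex cannot be told apart there. No label says what these replicate numbers stand for. Because the livers were measured whole, fewer dividing cells and less RNA per cell cannot be told apart.

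Promoter sequence is shown because all 40 members had lower means in the knockout and many are textbook E2F targets. RefSeq windows of 300 bases on GRCm38.p6, from 250 before to 50 after a start site, matched 34 of the 40 members, with 40 windows. They were searched on both strands for 4 words of the E2F consensus, TTTCCCGC, TTTCGCGC, TTTGCCGC and TTTGGCGC. Words on opposite strands can overlap in a single palindrome-like site. At least 1 word was found in 14 of the 40 windows, or 35.0%, against 2.26% of all 32851 windows. These 14 windows belonged to 14 members, but Cdc6 was the only one of the 8 called members among them, and 7 of those 8 had a window. CCAAT was found in 55.0% of the members' windows and in 37.4% of all windows. TTTGAA, the letters of a cell cycle element known from mitotic genes, was found in 15.0% of the members' windows and in 17.9% of all. A word match is not a measured binding site. The words are a property of the reference sequence, not of these livers, and a part of E2F in the lower means was not tested.

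Of the members with a word wholly before the start site, all 9 are given 5′ to 3′ on the gene's strand, from 20 bases before the first word to 20 after the last or to the start site where that comes sooner, with the E2F words in capitals. Words printed as GCGGGAAA, GCGCGAAA or GCGCCAAA are matches on the opposite strand.
Cdc6, chr11:98907993-98908040, plus strand: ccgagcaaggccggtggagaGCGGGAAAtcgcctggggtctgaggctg
Orc1, chr4:108579407-108579453, plus strand: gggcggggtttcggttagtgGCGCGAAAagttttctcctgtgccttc
Mcm5, chr8:75109336-75109387, plus strand: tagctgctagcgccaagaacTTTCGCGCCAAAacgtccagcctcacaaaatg
Mcm6, chr1:128359725-128359835, minus strand: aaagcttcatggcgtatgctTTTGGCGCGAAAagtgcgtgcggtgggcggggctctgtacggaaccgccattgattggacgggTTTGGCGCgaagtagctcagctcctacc
Mcm7, chr5:138172021-138172068, minus strand: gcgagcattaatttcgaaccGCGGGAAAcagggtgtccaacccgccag
Gins3, chr8:95633498-95633545, plus strand: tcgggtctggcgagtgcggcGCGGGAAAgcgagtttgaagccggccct
Pola1, chrX:93632266-93632313, minus strand: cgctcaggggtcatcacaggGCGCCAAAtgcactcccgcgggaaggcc
Rfc3, chr5:151651209-151651238, minus strand: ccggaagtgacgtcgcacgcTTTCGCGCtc
Uhrf1, chr17:56304108-56304155, plus strand: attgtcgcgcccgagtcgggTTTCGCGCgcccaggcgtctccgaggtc

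Mcm5 and Mcm6 carried overlapping words on opposite strands, beginning 153 and 149 bases before the start in Mcm5 and 110 and 106 bases before it in Mcm6. Mcm6 had a further word beginning 47 bases before its start. The single word of Cdc6 began 138 bases before the start, and that of Orc1 27 bases before it. E2f8, the member with the lowest p, had none of the 4 words in its window. Its upstream stretch is shown with CCAAT and TTTGAA, each matched on the opposite strand, in capitals.
E2f8, chr7:48881597-48881728, minus strand: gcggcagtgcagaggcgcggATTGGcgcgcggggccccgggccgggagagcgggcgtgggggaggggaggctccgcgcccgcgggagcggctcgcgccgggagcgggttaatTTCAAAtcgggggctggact

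Of the 10 origin licensing genes, 2 fell past the threshold, and 8 had groups that did not overlap. Over all genes 0.841% were called lower, and 5.02% had every knockout value below every wild type value. Cdc6 encodes the loader ATPase that brings MCM rings to origins. Its values were 7.73, 7.41, 7.92 and 7.67 in wild type livers 1 to 4 and 6.95, 6.21, 6.14 and 6.85 in knockout livers 1 to 4. Knockouts 2 and 3 were the low livers, and the lowest wild type liver exceeded the highest knockout by 0.46. Cdc6 fell by 1.14 ± 0.20 (SE), to 45.2% of the wild type level, with a limma adjusted p of 0.0429. Orc6, the smallest subunit of the origin recognition complex, was at 7.22, 6.92, 7.13 and 7.03 in wild type and at 6.52, 6.56, 6.27 and 6.58 in knockout livers. It fell by 0.59 ± 0.11 (adjusted p 0.0462), with a gap of 0.34 between the groups.

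Orc1, the ATPase subunit of the same complex, differed by -0.65 ± 0.14 (SE) with an adjusted p of 0.0796 in its brightest probe set, and the groups did not overlap. A second probe set of Orc1, not chosen by brightness, fell by 1.16 ± 0.21 with a limma adjusted p of 0.0477. Cdt1, which loads MCM together with CDC6, differed by -0.60 ± 0.17. Its highest knockout value and its lowest wild type values were nearly equal, 9.25 in knockout 1 against 9.23 in wild type 2 and 9.25 in wild type 4.

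None of the 6 subunits of the MCM2-7 ring passed the threshold in its brightest probe set, and all 6 had lower means in the knockout. Differences were -0.79 in Mcm2, -0.80 in Mcm3, -0.76 in Mcm4, -0.82 in Mcm5, -0.57 in Mcm6 and -0.65 in Mcm7, with limma adjusted p between 0.0586 and 0.213. Mcm6, the subunit with the smallest difference, was at 9.99, 9.59, 9.89 and 9.73 in wild type livers 1 to 4 and at 9.47, 9.52, 8.88 and 9.07 in knockout livers 1 to 4. A dimmer probe set of Mcm6 fell by 0.96 ± 0.17 (SE), past the threshold at an adjusted p of 0.0431. Mcm3 was the only ring subunit whose groups overlapped in the brightest probe set. Wild type 2 stood at 7.85, below knockout 1 at 7.87 and knockout 2 at 7.98. Other bright probe sets of Mcm3 differed by -0.99, -0.88 and -0.87 without overlap, and by -0.17 with overlap. In knockout 3 each of the 6 subunits had its lowest value of the 8 livers.

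Among the 5 genes of helicase activation 2 fell past the threshold, against 0.841% of all genes called lower. Mcm10, a scaffold that joins the active helicase to polymerase alpha, was at 7.14, 6.92, 7.09 and 6.99 in wild type livers 1 to 4 and at 6.57, 6.51, 6.09 and 6.21 in knockout livers 1 to 4. It fell by 0.68 ± 0.12 (SE), or 1.61-fold, at an adjusted p of 0.0458. Wild type livers spread little, with a standard deviation (SD) of 0.10 (n = 4) against 0.23 in the knockout, and the groups lay 0.34 apart. Cdc45, a core subunit of the active helicase, was at 6.23, 5.96, 6.29 and 6.16 in wild type and at 5.55, 5.39, 5.56 and 5.72 in knockout livers. Cdc45 fell by 0.61 ± 0.11 (adjusted p 0.0441). For this gene knockout 2, not knockout 3, was the lowest liver.

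The GINS subunits stood near the same difference without passing. Gins1 differed by -0.65 ± 0.13 (SE, adjusted p 0.0592), Gins2 by -0.58 ± 0.20 (adjusted p 0.259) and Gins3 by -0.53 ± 0.13 (adjusted p 0.117). Gins3, with the smallest difference of the group, was at 5.42, 5.21, 5.34 and 5.34 in wild type livers 1 to 4 and at 4.84, 5.13, 4.49 and 4.72 in knockout livers 1 to 4. Only knockout 2 came close to the wild type range. Gins2 overlapped between the groups, with wild type 2 at 6.12 below knockout 1 at 6.25 and knockout 2 at 6.33.

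None of the 8 primase and polymerase genes passed the threshold, though 7 of them had an unadjusted p under 0.05 in limma. At that level 1489 of all 18193 genes were lower. Prim1, the catalytic primase subunit that lays RNA primers, had the largest difference of this group. It was at 8.46, 8.33, 8.62 and 8.51 in wild type livers 1 to 4 and at 8.12, 7.96, 7.44 and 7.87 in knockout livers 1 to 4. The difference was -0.63 ± 0.14 (SE, adjusted p 0.0899), with no overlap. Prim2, the large primase subunit, differed by -0.55, and Pola1 and Pola2, subunits of polymerase alpha, by -0.59 and -0.57. Pola1 was among the most scattered members, with wild type 1 at 6.01 below knockout 1 at 6.38, and within replicates 1 and 2 its difference was 0.01.

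The lagging strand polymerase delta subunits Pold1 and Pold2 differed by -0.57 and -0.52. Pole, the catalytic subunit of the leading strand polymerase epsilon, had the smallest difference of all 40 members, -0.27 ± 0.13 (SE, limma adjusted p 0.459). It was at 6.72, 6.51, 6.62 and 6.55 in wild type livers 1 to 4 and at 6.49, 6.56, 6.03 and 6.23 in knockout livers 1 to 4. Knockouts 1 and 2 lay beside wild type 2, and knockouts 3 and 4 lay below. Pole2, its partner subunit, differed by -0.59 ± 0.12 with an adjusted p of 0.0580, the lowest among members that were not called.

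The clamp and its loaders held the member with the largest fitted difference. Dscc1 encodes a subunit of the alternative clamp loader that acts in sister chromatid cohesion. Its values were 5.68, 5.01, 5.88 and 5.42 in wild type livers 1 to 4 and 4.87, 4.03, 3.90 and 3.96 in knockout livers 1 to 4. Knockout 1 stood 0.83 above the next knockout before rounding, and 0.14 below the lowest wild type liver. Dscc1 fell by 1.31 ± 0.24 (SE) at a limma adjusted p of 0.0480. Knockouts 2 to 4 lay close to the array medians of 3.68 to 3.73, where values are not shown to be above background, and the size of this difference is uncertain for that reason.

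Rfc4, a small subunit shared by the clamp loaders, was at 8.56, 8.25, 8.58 and 8.38 in wild type livers 1 to 4 and at 7.87, 7.54, 7.07 and 7.48 in knockout livers 1 to 4. It fell by 0.95 ± 0.16 (SE), to 51.7% of the wild type level (adjusted p 0.04). Its other probe set differed by -1.03 ± 0.20 (limma adjusted p 0.0539). The loader subunits Rfc3 and Rfc5 differed less, by -0.74 and -0.55, and overlapped between the groups. Rfc5 was at 7.54, 6.87, 7.43 and 7.54 in wild type and at 6.84, 6.78, 6.56 and 7.0 in knockout livers. Wild type 2 fell among the knockout values here. Pcna, the sliding clamp itself, differed by -0.62 ± 0.17 (adjusted p 0.157). Its wild type livers lay between 11.18 and 11.41 and its knockout livers between 10.15 and 10.99, knockout 3 being the lowest.

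**Figure D3:**
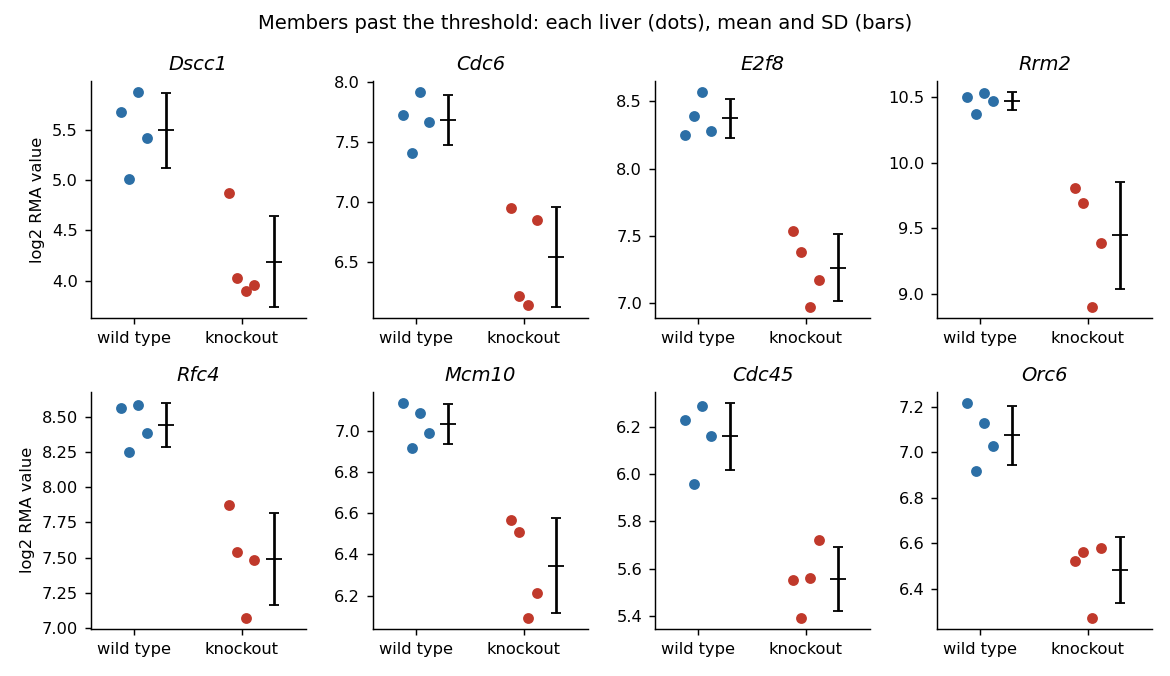
The log2 value of each of the 8 members past the threshold in each liver (dots; wild type blue, knockout red), with the group mean and SD over 4 livers as bars and an axis of its own for each gene. Every knockout dot lies below every wild type dot, with the widest gap, 0.71, in E2f8 and the narrowest, 0.14, in Dscc1.

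The 3 genes of strand binding and joining did not pass. Lig1, which seals Okazaki fragments, was at 8.29, 7.97, 8.27 and 8.06 in wild type livers 1 to 4 and at 7.74, 7.57, 7.09 and 7.35 in knockout livers 1 to 4. The difference was -0.71 ± 0.15 (SE, limma adjusted p 0.0678), with no overlap. Fen1, the flap nuclease that trims those fragments, was at 9.31, 8.88, 9.30 and 9.01 in wild type and at 8.88, 8.68, 8.36 and 8.56 in knockout livers. Its difference was -0.50 ± 0.14, and the groups were 0.01 apart, between wild type 2 and knockout 1. Rpa2, a subunit of the single-strand binding protein, differed by -0.70 ± 0.16 (adjusted p 0.0826).

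In nucleotide supply 1 of 5 genes fell past the threshold, against 0.841% of all genes called lower. Rrm2, the S-phase subunit of ribonucleotide reductase, which makes deoxynucleotides, was at 10.50, 10.37, 10.53 and 10.47 in wild type livers 1 to 4. In knockout livers 1 to 4 it was at 9.81, 9.69, 8.90 and 9.39. The wild type livers agree within an SD of 0.07 (n = 4), while the knockout SD was 0.41. Rrm2 fell by 1.02 ± 0.18 (SE), to 49.2% of the wild type level (limma adjusted p 0.0429). The probe set carries an _x_at suffix, which marks probes that can match related transcripts. A further probe set of Rrm2 without that suffix fell by 1.03 ± 0.18 (adjusted p 0.0441).

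Rrm1, the large subunit of the same enzyme, differed by -0.66 ± 0.19 (SE, adjusted p 0.183). Wild type 1 stood at 10.11, above the other wild type livers at 9.51 to 9.52. Tk1, the thymidine kinase of the salvage route, differed by -0.56, and Dut, which removes dUTP, by -0.73. Tyms, the thymidylate synthase, was read from a dim probe set at 3.13, 3.59, 3.09 and 3.09 in wild type livers 1 to 4 and 3.19, 2.96, 2.58 and 2.75 in knockout livers 1 to 4. These values lie below the array medians and are not shown to be above background. A brighter probe set, which the annotation shares between Tyms and its pseudogene Tyms-ps, differed by -0.79 ± 0.17 (limma adjusted p 0.0691) with no overlap between the groups.

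For chromatin assembly and copying 2 genes were measured. Uhrf1, which carries DNA methylation over to the new strand, was at 8.12, 7.75, 8.88 and 8.43 in wild type livers 1 to 4 and at 7.29, 7.44, 7.33 and 7.77 in knockout livers 1 to 4. The difference was -0.84 ± 0.22 (SE, limma adjusted p 0.133). Knockout 4 at 7.77 stood just above wild type 2 at 7.75, and the groups overlapped there. Chaf1b, a subunit of the histone chaperone that follows the fork, was at 6.37, 6.01, 6.29 and 6.18 in wild type and at 5.88, 5.80, 5.36 and 5.56 in knockout livers. Its difference was -0.56 ± 0.13 (adjusted p 0.102), with no overlap.

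Of the E2F factors, the atypical repressor E2f8 fell and the activator E2f1 did not pass. E2f8 was at 8.25, 8.39, 8.57 and 8.28 in wild type livers 1 to 4 and at 7.54, 7.38, 6.97 and 7.17 in knockout livers 1 to 4. The groups lay 0.71 apart, the widest gap of the 40 members. E2f8 fell by 1.11 ± 0.14 (SE), or 2.15-fold, at a limma adjusted p of 0.0204, and ranked 9 among all genes by p. It was called in 5 of the 8 fits that left out 1 array, more than any other member, but not without wild type 3, wild type 4 or knockout 4. E2f1 was at 5.83, 5.27, 5.90 and 5.69 in wild type and at 5.29, 5.32, 5.01 and 5.33 in knockout livers, with a difference of -0.43 ± 0.15 (adjusted p 0.260). Wild type 2 lay among the knockout values of E2f1.

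The further probe sets of the members, which the choice of the brightest left out, gave a second reading of the same RNA. There were 48 of them in 32 genes. The 29 with means above the array medians all had lower means in the knockout, with a median difference of -0.73 and a range from -0.17 to -1.16. Of these 29, 15 had groups that did not overlap and 3 passed the threshold. Counted by gene, 854 of 11724 genes with means above the array medians had every knockout value below every wild type value. Of those 11724 genes 1.3% were called lower. The 19 dimmer probe sets of the members had a median of -0.09. Among them a probe set of Rrm1 fell past the threshold, by 0.57 ± 0.1 (SE, limma adjusted p 0.0431). Its group means, 2.13 in knockout and 2.7 in wild type livers, lie below the array medians. Among called members, the other E2f8 probe set differed by -0.70 (limma adjusted p 0.157) and that of Cdc45 by -0.23 (adjusted p 0.496). These are bright, and their groups overlapped. Dim probe sets differed by -0.08 in Dscc1 and by -0.04 and -0.11 in Mcm10. Other probe sets of Rfc4 and Rrm2 differed by -1.03 to -1.06. Of the 40 probe sets used, 8 carry an _s_at or _x_at suffix, 1 of them among the 8 called.

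Across livers the members varied together within each genotype. Relative to each gene's mean over the 8 livers, the median deviation of the 40 members was 0.44, 0.11, 0.49 and 0.30 in wild type livers 1 to 4. It was -0.07, -0.23, -0.60 and -0.35 in knockout livers 1 to 4. Knockout 3 was the lowest of all 8 livers for 34 members, and wild type 2 the lowest wild type liver for 35. Knockout 1 was the highest knockout liver for 24 members, and wild type 3 and wild type 1 were the highest of all livers for 20 and 18. The same counts were not made over all genes. The step from knockout 1 to wild type 2, 0.19 between their medians, was smaller than the spread of 0.52 among knockout or 0.38 among wild type livers.

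**Figure D4:**
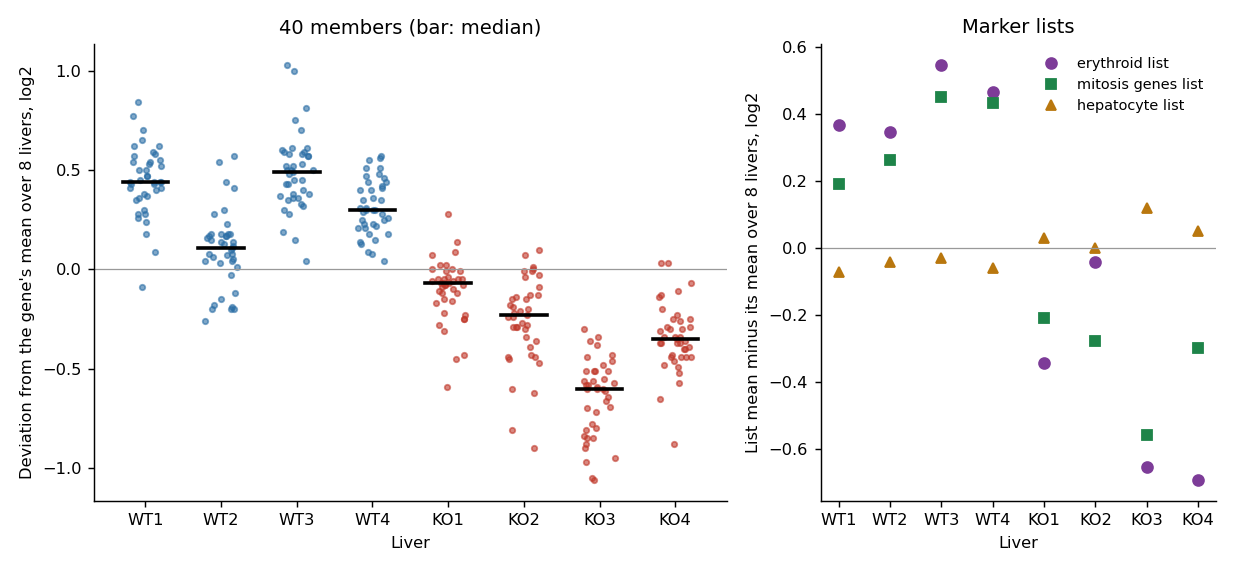
Left, each member's log2 deviation from its mean over 8 livers (dots) with the median of the 40 members (bar) in each liver. Right, the mean of 3 marker lists in each liver relative to its mean over the livers. Member medians run from 0.49 in wild type 3 to -0.60 in knockout 3, and the erythroid and mitosis lists are below 0 in every knockout liver.

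Of 43 further measured genes of the replication fork, origins and nucleotide supply, 1 passed the threshold. That is 2.33%, while 0.841% of all genes were called lower. In this list 39 genes had lower means in the knockout, with a median of -0.38, while 46.7% of all genes had lower means. Dck, the deoxycytidine kinase, was the 1 that fell past the threshold, by 0.99 ± 0.16 (SE, limma adjusted p 0.0383). Its values were 8.92, 8.33, 8.89 and 8.62 in wild type livers 1 to 4 and 8.05, 7.45, 7.67 and 7.61 in knockout livers 1 to 4. No gene of this list passed when knockout 2, knockout 3, knockout 4, wild type 3 or wild type 4 was dropped, and 2 passed when wild type 2 was. Calls over all probe sets went from 343 to 277, 38, 13, 13 and 9 in the fits with none, and to 489 without wild type 2.

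Of 27 genes controlling the passage from G1 to S, 22 had lower means and 4 fell past the threshold, with a median of -0.29. The 4 make 14.8% of the list, against 0.841% of all genes called lower. E2f7, the atypical partner of E2f8, fell by 0.94 ± 0.13 (SE, limma adjusted p 0.0255). Ccne2, a cyclin E that drives entry to S phase, fell by 1.01 ± 0.19 (adjusted p 0.0499). Cdkn2c and Cdkn2d, which encode inhibitors of the G1 kinases CDK4 and CDK6, differed by -0.80 ± 0.15 and -0.78 ± 0.11 (adjusted p 0.0468 and 0.0278). Cyclin E and these inhibitors are known to act in opposite directions on the entry to S phase. Of this list 2 genes passed when knockout 1 or wild type 2 was dropped, 1 when knockout 3 was, and 0 when knockout 4, wild type 3 or wild type 4 was. In the fits with 0, calls over all probe sets fell from 343 to 13, 13 and 9.

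All 26 measured mitosis genes had lower means, with a median of -0.64, and 9 fell past the threshold. These are 34.6% of the list, against 0.841% of all genes called lower. Tpx2 and Plk1, which act in spindle assembly, differed by -0.87 ± 0.12 (SE) and -0.84 ± 0.12, at limma adjusted p of 0.0266 and 0.0278. Differences were -0.71 and -0.82 for the cyclin genes Ccnb2 and Ccna2, -0.82 for the spindle kinesin Kif20a and -0.62 for the checkpoint kinase gene Bub1b, all past the threshold. Leaving out wild type 2 gave 15 calls in this list, leaving out knockout 2 gave 6, and leaving out either array numbered 1 gave 5. There were 0 calls in the fits lacking knockout 3, knockout 4, wild type 3 or wild type 4. Over all probe sets those fits had 38, 13, 13 and 9 calls, against 343 with every array.

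Markers of red cell precursors moved in the same direction. Of 18 measured erythroid markers, 17 had lower means in the knockout and 7 fell past the threshold, with a median of -0.84. The share called was 38.9%, against 0.841% of all genes called lower. The mean of the list lay between 7.42 and 8.07 in knockout and between 8.46 and 8.66 in wild type livers. Hba-a1, at 2.02 in its only single-gene probe set, was the 1 erythroid marker below the array medians. Nfe2, a transcription factor of red cell and platelet precursors, fell by 0.98 ± 0.12 (SE, limma adjusted p 0.0204), and Dmtn, of the red cell membrane skeleton, differed by -1.26 ± 0.17 (adjusted p 0.0255). The embryonic globin gene Hbb-bh1 and Trim10, which acts in red cell maturation, each differed by -1.32. Erythroid calls numbered 13 in the fit lacking knockout 2, 5 in that lacking knockout 1 and 4 in that lacking wild type 1. They numbered 0 when knockout 3, knockout 4, wild type 3 or wild type 4 was left out. Over all probe sets 38, 13, 13 and 9 were called in those fits.

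The order of the livers differed in part between these markers and the replication genes. The erythroid mean was lowest in knockouts 4 and 3, at 7.42 and 7.46, and highest among the knockouts in knockout 2, at 8.07. The replication genes were highest among the knockouts in knockout 1, whose erythroid mean was 7.77. Wild type 1 and 2 had erythroid means of 8.48 and 8.46 beside replication medians of 0.44 and 0.11. The part of red cell precursors in the fall of the replication genes was not tested.

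None of the other cell type lists had a gene past the threshold. The 10 hepatocyte markers had a median difference of 0.09, and their mean lay between 12.46 and 12.58 in knockout and between 12.39 and 12.43 in wild type livers. Neutrophil markers had a median of -0.18 over 10 genes, with Ltf at -0.47 ± 0.22 (SE, limma adjusted p 0.452). B cell precursor markers had a median of -0.24 over 9 genes, with Ebf1 at -0.63 ± 0.20 (adjusted p 0.213) and dim. Of these 9 genes, 7 had lower means, and 3 were lower at an unadjusted limma p under 0.05. At that level 1489 of all 18193 genes were lower. Medians lay between -0.12 and 0.13 for megakaryocyte, macrophage, endothelial, bile duct and stellate markers, whose genes of lowest p (Itga2b, C1qa, Lyve1, Epcam and Lrat) had adjusted p between 0.386 and 0.558. Of the hepatocyte genes Fgb, a fibrinogen chain, had the lowest p, at 0.31 ± 0.09 (limma adjusted p 0.187).

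**Figure D5:**
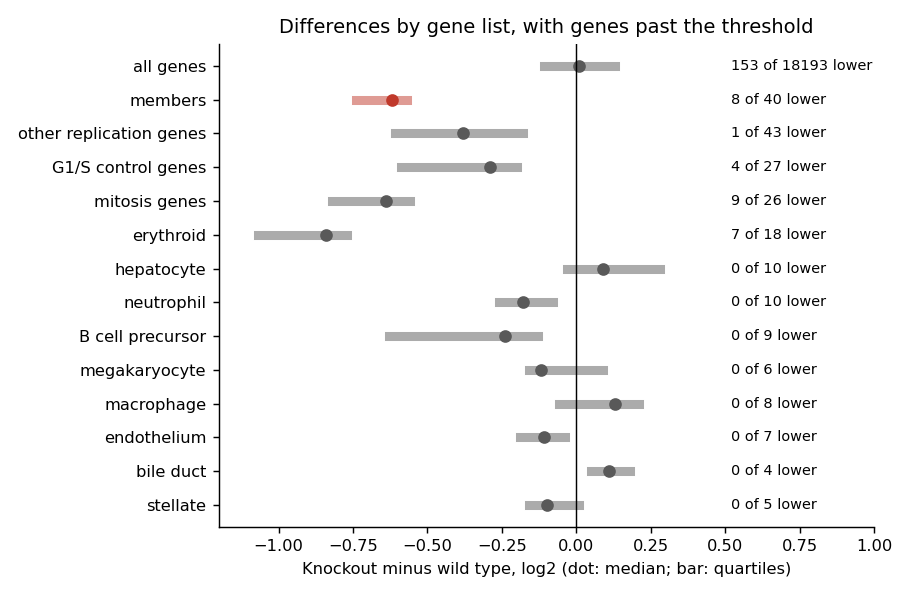
Median (dot) and quartiles (bar) of the log2 difference between knockout and wild type livers for all genes, for the replication genes described here (members, red) and for the other lists, with the number past the threshold and lower. The members lie at -0.62, beside -0.64 for mitosis genes and -0.84 for erythroid markers, and the other cell type lists lie between -0.24 and 0.13.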

How the data were processed

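The deposited table gives log2 values of 45101 probe sets on 8 arrays, made by the authors. The submitters' processing notes name RMA, which gives all arrays a shared distribution, so a change in total mRNA cannot be seen. The program that ran it is not stated in the labels. After leaving out 64 array controls, 45037 probe sets were tested. The annotation pairs 34945 with 1 gene, of which 34741 were found by Entrez identifier in the GRCm38.p6 gene table, which gave current symbols. 932 have several genes and 9160 are unnamed here.

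Knockout was compared with wild type in limma 3.58.1 under R 4.3.3 (lmFit, then eBayes, a two-sided test without covariates), with Benjamini-Hochberg adjustment over all probe sets. The script was tested on simulated data. Differences are knockout minus wild type. Each array was taken as a separate mouse, since the design text speaks of 4 mice per group. Arrays give no read depth, and their number limits the precision.

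The members and lists were chosen with earlier results of these data known. Every member is named. Those past the threshold, and the largest and smallest difference of each role, are given per liver. From other pathway lists up to 6 and from cell type lists up to 4 genes past the threshold could be named, or else the one of lowest p. Alb, Ttr and Apoa1 were named after their values were seen. Alternatives are in the closing section.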

Additional observations from a re-analysis of the deposited data

Results flagged for a closer look

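In 10 of 80 groups of 4 livers, 1 liver stood far from the other 3 for a member, by a test that flags about 1 group in 20 by chance. High knockout values were those of knockout 1 in Dscc1 at 4.87, in Rpa2 at 7.20 and in Pold1 at 6.15, and that of knockout 4 in Pola2 at 6.62. Knockout 3 was low in Orc6 at 6.27 and in E2f1 at 5.01. Among wild type livers, wild type 2 was low in Rfc5 at 6.87 and in Dut at 7.19 and high in Tyms at 3.59, and wild type 1 was high in Rrm1 at 10.11. The nearest other value was 9.52 for Rrm1 and 7.95 for Dut. The reasons were not tested.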

How the results depend on the processing

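All 40 members kept a lower mean in the knockout in the fits that left out an array and in every other alternative that measured them, except Pola1, which stood at 0.01 in replicates 1 and 2 alone. The 8 members called lower became 12 without dim probe sets, which also drops Tyms, 4 with quantile normalization again, 8 with median centring, 7 with trended and robust variance and 21 with array weights. They became 8 with the 2 sets of replicate numbers as a block, 0 in replicates 1 and 2 alone, 7 in replicates 3 and 4 alone, 18 with the Y-linked mean as a covariate and 17 with the mean of all probe sets of a gene. Leaving out 1 array gave between 0 and 15. Calls over all probe sets changed as well, from 343 to 914 with array weights, 230 with quantile normalization again and 15 with the replicate number as a block. They were 442 without dim probe sets, 375 with median centring, 351 with trended and robust variance and 514 with the 2 sets as a block. The Y-linked covariate gave 527, and replicates 1 and 2 alone and 3 and 4 alone gave 4 and 461. With the mean of all probe sets of a gene, 383 genes were called. No member was called higher in any of these fits. The median of -0.62 was -0.87 in replicates 3 and 4 alone, -0.43 in replicates 1 and 2 alone and between -0.54 and -0.72 without 1 array. The 1 call among other replication genes became 10 with array weights, 2 with the 2 sets as a block, 0 in replicates 1 and 2 alone, 4 in replicates 3 and 4 alone, 5 with the Y-linked mean, 6 with the mean of all probe sets, and between 0 and 2 without 1 array. With the replicate number as a block 0 members and 0 other replication genes were called, and the lowest adjusted p of a member was 0.0588. Same-numbered livers correlated in their deviations from the group means at -0.004 to 0.259, and 3 of the 8 livers correlated best with their own number, so the numbers were not taken to pair the mice. The causes of these changes were not tested. Over all members and alternatives, 637 values kept their direction and their side of the threshold, 73 were no longer past it, 48 were newly past it, and 1, that of Pola1, changed sign without being called. Most of the 637 belong to members called in neither fit, while the 73 all belong to the 8 called members. Values near the array medians of 3.68 to 3.73, as for Tyms, are not shown to be above background.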
